A study of Mus musculus with 6 samples.

Results

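Chemoattractant receptors are the cell-surface proteins through which leukocytes sense the gradients they crawl along. Here 9 of their genes were followed in the mouse macrophage line RAW264.7, namely the chemokine receptor genes Cx3cr1, Ccr1, Ccr2, Ccrl2 and Cxcr4, the anaphylatoxin receptor genes C3ar1 and C5ar1, and the formyl peptide receptor genes Fpr1 and Fpr2. The choice was made with earlier results of these data known, and the genes were taken by symbol from a table of 55487 genes. All 9 were found in it, and 7 had enough counts to be among the 12930 genes tested.

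The series holds 6 RNA-seq libraries of RAW264.7 cells, a transformed line that serves as a model of macrophages and of osteoclast precursors. By their treatment labels all 6 samples were given RANKL, the cytokine that drives osteoclast formation, and M-CSF, the macrophage growth factor. The genotype of 3 is labelled wt, and these are the controls, although the design text calls the control untreated. The genotype of the other 3 is labelled RhoA knockout, made with what the titles call SMART-Cas9, and RhoA is the small GTPase through which many of these receptors tune actomyosin contraction. Whether the edited cells are a clone or a mixed population is not given in the sources used here, and no samples with Cas9 alone were analysed here. Effects of the editing procedure and of the edit cannot be told apart. No label says that replicates were grown separately, so p-values measure the spread between these libraries only, which may be technical.

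Most chemoattractant receptors cross the membrane repeatedly and signal through G proteins of the Gi class, which release beta-gamma subunits that activate phosphoinositide 3-kinase and phospholipase C. Kinases of the GRK family, arrestins and RGS proteins then switch the signal off. In macrophages these receptors guide entry into inflamed tissue, and fractalkine, C5a and CXCL12 have each been linked to the recruitment of osteoclast precursors to bone.

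Libraries held 60198645 to 81830819 counts, with 14962 to 15667 genes detected in each. The targeted gene, Rhoa, was not lower under the knockout label, with 1440 to 1655 counts in the control libraries and 2395 to 2805 in the others. It was called higher (log2 fold change 0.41 ± 0.12, SE; edgeR adjusted p = 0.0136). That call was lost without control replicate 1 (0.0645) or knockout replicate 1 (0.0741). Transcript level does not test an edit that leaves the transcript in place. Groups are named below by their labels. Macrophage genes were present, with Csf1r at 13459 counts or more and Cd68 at 75547 or more in each library, while Mertk held 4 counts in all. The 9 macrophage markers summed to 17411 to 19269 CPM in the control libraries and 80553 to 113207 in the others, with 3 called higher, 4 lower and 1 not called. Lyz2, the lysozyme gene, made up most of that sum, at 16827 ± 1067 against 88257 ± 17813 CPM (SD, n = 3 each). Csf1r and Cd68 were called higher too, while Itgam and Fcgr1 were called lower, with log2 fold changes of -2.01 and -1.91. Of 10 osteoclast markers 7 were tested, with Ctsk and Atp6v0d2 called higher, Acp5, Dcstamp and Mmp9 lower, and Calcr and Oscar at 0. The 10 osteoclast markers summed to 24.3 to 27.7 CPM in the control libraries and 27.3 to 27.5 in the others. Whether the cells responded to the labelled RANKL was not tested. The part of these marker shifts in the receptor values was not tested either. Most markers of other cells were at or near 0, apart from the T cell kinase gene Lck at 100 to 195 counts in each library. All 4 B cell and all 5 fibroblast markers were at 0, and 10 of 11 neutrophil markers were at 0, the exception being S100a8 with at most 19 counts in a library. Epcam, Krt8 and Krt18 had counts in control replicate 1 only, of 39, 24 and 48. Replicate 3 of each group stood apart from replicates 1 and 2 of the same group, with a chi-square per degree of freedom of 80.8 to 100.9 against 20.7 and 26.3 between replicates 1 and 2.

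Of the 9 receptor genes, Cx3cr1 and C5ar1 rose and C3ar1 and Fpr2 fell in the libraries labelled RhoA knockout. Ccr1, Ccr2 and Ccrl2 were tested and not called, and Cxcr4 and Fpr1 held too few counts to test. A gene was called where edgeR's quasi-likelihood test gave a Benjamini-Hochberg adjusted p under 0.05 over all genes tested. Over those genes 43.2% were called, 21% as higher and 22.3% as lower, so 2 higher and 2 lower of 7 stood close to the background. In 6 of the 7 the 3 libraries of each group did not overlap in CPM, against 55.8% of all genes. Fpr2 and Ccr2 entered the test through their control libraries, since only 1 knockout library of each passed the minimum on low counts, and the counts of receptors called support nothing beyond the single values below. In bulk RNA, fewer cells with a transcript and less transcript per cell cannot be told apart.

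**Figure D1:**
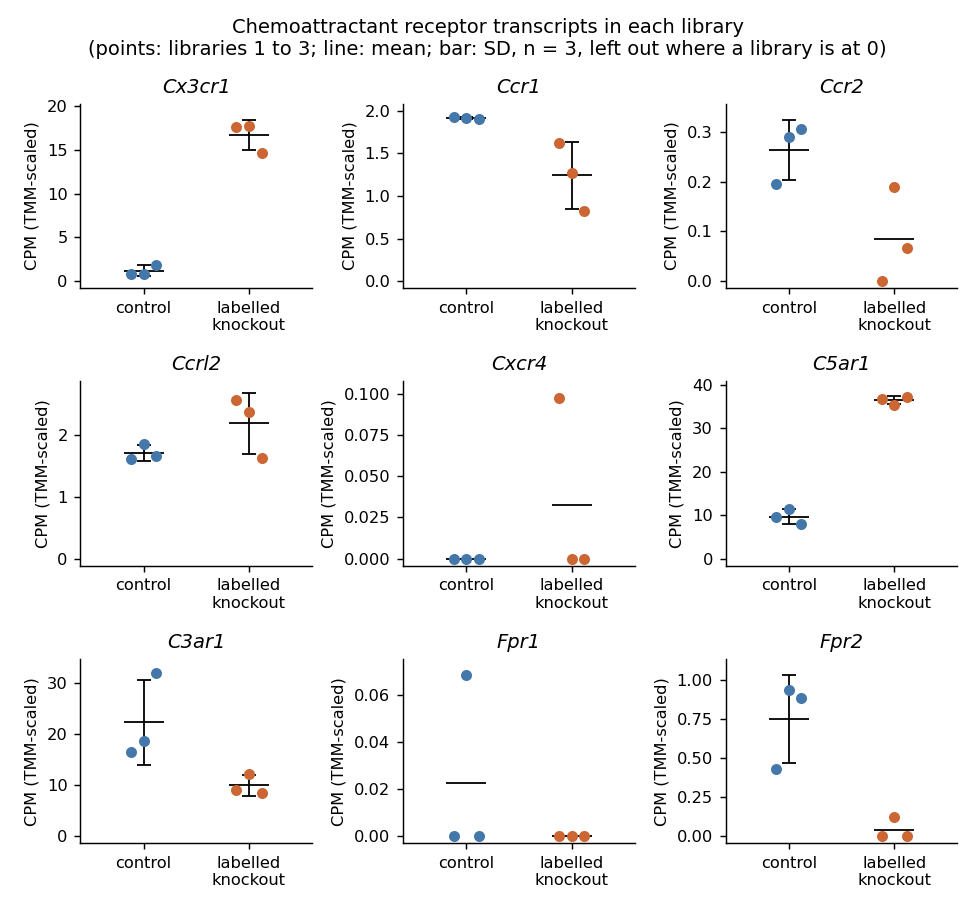
CPM (scaled by TMM factors) of each receptor gene, 1 panel per gene with its own axis, for 3 control libraries (blue) and 3 labelled RhoA knockout (orange); lines are means and bars are SD, left out where a library is at 0. Cx3cr1 and C5ar1 sit higher in all 3 orange points and C3ar1, Fpr2, Ccr1 and Ccr2 lower, of which Ccr1 and Ccr2 were not called. Cxcr4 and Fpr1 each have counts in a single library.

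Cx3cr1 encodes the receptor for fractalkine, a chemokine that exists both tethered to cell membranes and in soluble form, and it marks resident macrophages, patrolling monocytes and microglia. The gene (ENSMUSG00000052336.7) lies on the minus strand of chromosome 9, from 119901616 to 120069879 on GRCm38. It had 60, 48 and 111 counts under control and 1445, 1584 and 1114 under the knockout label. In CPM, the share of a library scaled to a common total with TMM factors, the control libraries lay at 0.778, 0.820 and 1.88, and the others at 17.6, 17.7 and 14.6. Every knockout library was above every control library, and control replicate 3 was the highest control. The log2 fold change was 3.85 ± 0.31 (SE; edgeR adjusted p = 1.33e-06), or 14.5-fold, above 99.2% of all genes tested. Without control replicate 3 it was 4.38. The antisense gene Gm33858 overlaps 78 bp of its exons and held 122 counts over all libraries against 4362 for Cx3cr1.

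C5ar1 encodes the receptor for C5a, the most potent complement fragment in drawing in neutrophils and macrophages. The gene (ENSMUSG00000049130.6) lies on the minus strand of chromosome 7, from 16246743 to 16259540. Control libraries held 745, 666 and 464 counts and knockout libraries 3009, 3167 and 2836. This was 9.66, 11.4 and 7.87 CPM against 36.7, 35.4 and 37.3 CPM. The knockout libraries lay within a narrow band well above the controls. The log2 fold change was 1.92 ± 0.14 (SE; edgeR adjusted p = 8.84e-07), a 3.78-fold rise, and 1.69 with a correction for gene length. That correction was tried because short genes lay higher in these knockout libraries in general. The median log2 fold change was 0.31 in the third of genes with the shortest exon length and -0.36 in the third with the longest.

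C3ar1 encodes the receptor for C3a, the fragment released when complement component C3 is cleaved. The gene (ENSMUSG00000040552.8) lies on the minus strand of chromosome 6, from 122847138 to 122856161. Control libraries held 1273, 1089 and 1880 counts and knockout libraries 740, 1098 and 651. This gave 16.5, 18.6 and 31.9 CPM against 9.02, 12.3 and 8.56 CPM. The groups did not overlap, and control replicate 3 lay far above the other controls. The log2 fold change was -1.16 ± 0.24 (SE; edgeR adjusted p = 0.00233), a 2.24-fold fall. It was -0.81 without control replicate 3 and -0.72 without both libraries numbered 3, a setting added once the data had been seen, with adjusted p-values of 0.00498 and 0.0162.

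The anaphylatoxin receptors therefore moved in opposite directions in the same libraries. Per length, C5ar1 stood to C3ar1 as 0.980, 1.02 and 0.413 to 1 in the control libraries and as 6.81, 4.83 and 7.30 to 1 in those labelled knockout. This ratio within a library does not depend on scaling between libraries. The mean log2 ratio went from -0.42 ± 0.74 to 2.64 ± 0.32 (SD, n = 3 each), a difference of 3.06. Its two-sided exact permutation p was 0.1, the smallest that 3 against 3 libraries can give. That p was fixed in advance, since each gene alone separated the groups, in opposite directions, so it adds no support. The pair was singled out after its values were seen. C3 itself, the precursor of C3a, held 79, 170 and 81 counts against 166, 179 and 138 and was not called (log2 fold change 0.14, adjusted p = 0.80). Hc, which encodes complement C5, was at 0 in all 6 libraries.

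**Figure D2:**
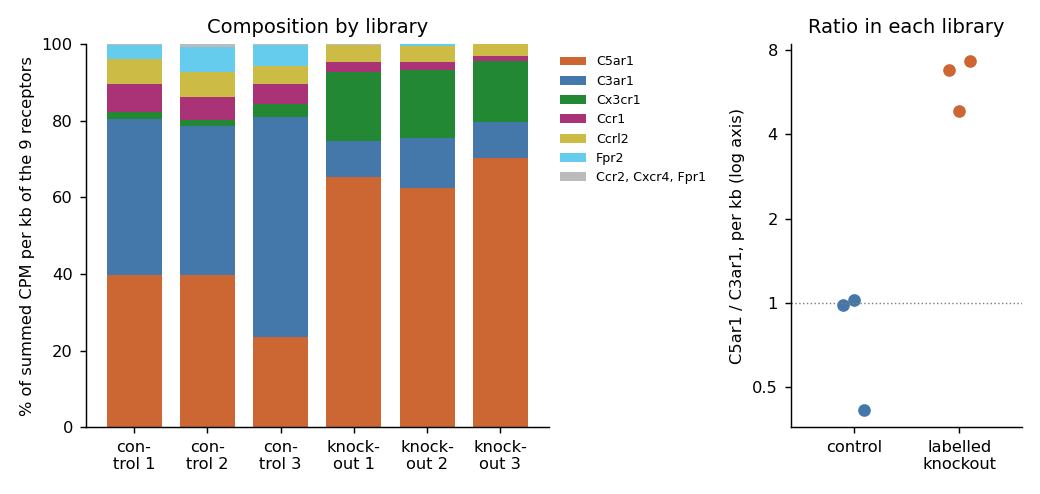
Left, the share of each receptor gene in the summed CPM per kb of exon of all 9 receptors, 1 bar per library; right, the ratio of C5ar1 to C3ar1 per kb in each library on a log axis. C5ar1 makes up 23.7 to 39.9% of the sum in control libraries and 62.5 to 70.2% in those labelled knockout, while C3ar1 goes from 38.8 to 57.3% down to 9.57 to 12.9%.

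Fpr2 and Fpr1 encode receptors that sense N-formylated peptides from bacteria and from mitochondria, and FPR2 also binds serum amyloid A and annexin A1. Fpr2 (ENSMUSG00000052270.7, chromosome 17, 17887824 to 17893952, plus strand) had 33, 55 and 52 counts under control and 0, 11 and 0 under the knockout label. In CPM the controls lay at 0.428, 0.940 and 0.882, while the single knockout library with counts lay at 0.123. It was low in both groups and did not overlap between them. The fitted log2 fold change was -4.10 ± 1.27 (SE; edgeR adjusted p = 0.0208). From summed counts over scaled totals, the control level was 16.2 times the knockout level, with a 95% counting interval of 8.77 to 33.2 that covers counting error only. The call rests on few counts. It was lost without control replicate 2 (adjusted p = 0.0725), control replicate 3 (0.0663), knockout replicate 3 (0.0515) or both libraries numbered 3 (0.106). Without knockout replicate 2, which holds all 11 counts, the knockout libraries left are at 0. The fitted value of -8.73 there does not measure the size of the fall. Fpr2 is 95.7% identical over 1041 bp to the predicted gene Gm5966 and 87.8% over 1131 bp to Fpr3, and both of these were at 0 in every library.

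Fpr1 (ENSMUSG00000045551.7, chromosome 17, 17876471 to 17883940, minus strand) held 4 counts in control replicate 2 and none elsewhere. A count of 0 allows up to 3 counts, or 0.0336 to 0.0513 CPM depending on the library, so no change in Fpr1 was detectable at this depth.

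Ccr1, a receptor for CCL3, CCL5, CCL7 and CCL9, lies on the minus strand of chromosome 9 from 123962124 to 123968692 (ENSMUSG00000025804.5). Its counts under control were 149, 112 and 112, and under the knockout label 133, 114 and 63. On the CPM scale the controls agreed closely, at 1.93, 1.91 and 1.90, and the others spread over 1.62, 1.28 and 0.828. All 3 knockout libraries lay below the controls, yet the fit did not call the gene (log2 fold change -0.62, 95% interval -1.38 to 0.14, edgeR adjusted p = 0.174). Its closest match, Ccr1l1, shared 78.1% identity over 1043 bp and was at 0.

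Ccr2, the receptor for CCL2, CCL7 and CCL12 that carries monocytes out of the bone marrow, was barely detected. The gene (ENSMUSG00000049103.14, chromosome 9, 124101950 to 124113557, plus strand) had 15, 17 and 18 counts under control and 0, 17 and 5 under the knockout label. In CPM the controls lay at 0.194, 0.290 and 0.305 and the others at 0, 0.190 and 0.0657, without overlap. The log2 fold change of -1.60 had a 95% interval from -4.40 to 1.21 (edgeR adjusted p = 0.350), so the gene was not called. From summed counts over scaled totals, the control level was 2.89 times the knockout level. The 95% counting interval of 1.72 to 5.01 covers counting error only, not the spread between libraries.

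Ccrl2, an atypical receptor that binds chemerin without signalling of its own and presents it to other receptors, had 125, 109 and 98 counts under control. The libraries labelled knockout held 210, 212 and 124. The gene (ENSMUSG00000043953.12) lies on the minus strand of chromosome 9, from 111054486 to 111057519. In CPM the groups overlapped, with controls at 1.62, 1.86 and 1.66 and the others at 2.56, 2.37 and 1.63. The log2 fold change was 0.35, with a 95% interval of -0.32 to 1.02 (edgeR adjusted p = 0.390), and 0.13 with the length correction. Rarres2, which encodes chemerin, was at 0 throughout.

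Cxcr4, the CXCL12 receptor that holds haematopoietic cells in the marrow, had 8 counts in knockout replicate 1 and none in the other 5 libraries. The gene (ENSMUSG00000045382.6) lies on the minus strand of chromosome 1 from 128588199 to 128592293. It was not tested, and its ligand gene Cxcl12 was at 0 in all libraries.

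**Figure D3:**
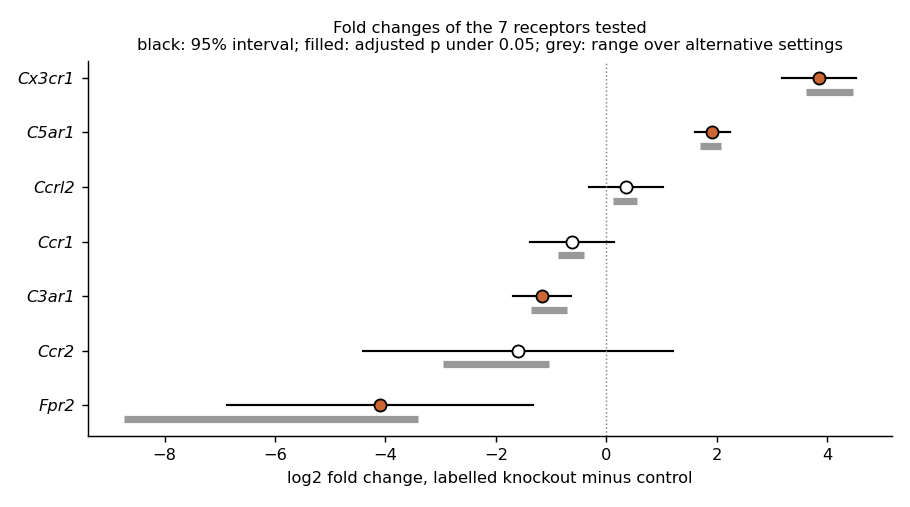
Log2 fold change (labelled RhoA knockout minus control) of the 7 receptor genes tested, with 95% intervals (black lines), filled points where the edgeR adjusted p was under 0.05, and the range over the alternative settings as grey bars. The intervals of Ccrl2, Ccr1 and Ccr2 cross 0, and that of Fpr2 runs from -6.87 to -1.32. The grey bar of Fpr2 reaches -8.73, in a setting where the knockout libraries left are at 0.

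Levels of different receptors can be compared only per length, here as CPM per kb of exon. In the control libraries C3ar1 (5.19 ± 1.94, SD, n = 3) and C5ar1 (3.75 ± 0.68) led and overlapped each other. Ccr1 (0.676), Ccrl2 (0.660) and Fpr2 (0.579) came next, each overlapping its neighbour, and Fpr2 also overlapped Cx3cr1 (0.258). Ccr2 (0.0390) was below these, and Fpr1 and Cxcr4 were last. In the libraries labelled knockout C5ar1 led at 14.2 ± 0.37, followed by Cx3cr1 at 3.70 ± 0.39, C3ar1 at 2.31 ± 0.47, Ccrl2 at 0.842 and Ccr1 at 0.438, with no overlap between neighbours down to Fpr2. Cx3cr1 thus went from the sixth place to the second. The summed level of the 9 receptors was 9.43 to 12.9 CPM per kb in the control libraries and 20.7 to 22.1 in those labelled knockout.

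Of the 4 receptor genes on chromosome 9, Cx3cr1 was called higher and Ccr1, Ccr2 and Ccrl2 were not called. Rhoa, the targeted gene, lies on the same chromosome, from 108306129 to 108337934, and local effects of the edit were not tested. Ccr1 and Ccr2 belong to a cluster of chemokine receptor genes. Of their neighbours there, Ccr3 and Ccr1l1 were at 0, and Ccr9 held at most 8 counts in a library. Cxcr6 (43, 12 and 10 counts against 9, 8 and 8) and Xcr1 (0, 45 and 0 against 31, 4 and 14) were tested and not called (edgeR adjusted p = 0.232 and 0.889). Fyco1, an autophagy adaptor gene within whose span Cxcr6 lies, fell from 11.2 ± 1.09 to 2.76 ± 0.77 CPM (SD, n = 3 each; edgeR adjusted p = 1.48e-05). The neighbours Sacm1l and Lztfl1 were not called (log2 fold changes -0.35 and -0.58, edgeR adjusted p = 0.146 and 0.477).

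Promoter sequence is shown for the receptors that were called, since these carry the changes above. The sequences are from RefSeq, and the windows run from 250 bases before to 50 after the RefSeq start on GRCm38.p6, 300 bases in all, and all 9 receptors had at least 1. They are shown 5′ to 3′ on the gene's strand, with matches to the motifs named below in capitals. They lie at chr9:120068247-120068546 (minus strand) for Cx3cr1, chr7:16259289-16259588 (minus) for C5ar1, chr6:122856108-122856407 (minus) for C3ar1 and chr17:17887574-17887873 (plus) for Fpr2.
Cx3cr1: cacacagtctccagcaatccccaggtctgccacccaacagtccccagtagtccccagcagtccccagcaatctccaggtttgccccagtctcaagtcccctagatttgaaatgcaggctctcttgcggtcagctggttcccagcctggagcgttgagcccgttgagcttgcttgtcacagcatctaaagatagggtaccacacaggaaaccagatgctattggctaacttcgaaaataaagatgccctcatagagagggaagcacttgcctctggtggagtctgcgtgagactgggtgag
C5ar1: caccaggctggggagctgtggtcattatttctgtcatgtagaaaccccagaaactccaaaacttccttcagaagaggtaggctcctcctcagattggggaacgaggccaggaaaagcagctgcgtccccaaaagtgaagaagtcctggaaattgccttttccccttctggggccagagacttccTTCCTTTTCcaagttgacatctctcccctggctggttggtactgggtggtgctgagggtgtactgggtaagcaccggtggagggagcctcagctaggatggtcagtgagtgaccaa
C3ar1: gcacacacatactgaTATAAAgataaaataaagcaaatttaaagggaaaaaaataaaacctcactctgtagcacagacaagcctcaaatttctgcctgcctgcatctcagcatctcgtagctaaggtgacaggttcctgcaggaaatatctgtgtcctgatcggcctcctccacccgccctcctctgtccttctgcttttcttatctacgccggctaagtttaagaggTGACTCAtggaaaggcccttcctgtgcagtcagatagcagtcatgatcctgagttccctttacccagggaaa
Fpr2: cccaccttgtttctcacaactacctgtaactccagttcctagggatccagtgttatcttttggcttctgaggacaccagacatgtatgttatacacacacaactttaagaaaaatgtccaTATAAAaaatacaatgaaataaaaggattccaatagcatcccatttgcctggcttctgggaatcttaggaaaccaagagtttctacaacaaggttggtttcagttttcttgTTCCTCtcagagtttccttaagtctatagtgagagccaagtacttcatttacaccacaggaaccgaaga

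Motifs were searched on both strands in these windows, and a match is a description of letters only. The PU.1 core GAGGAA was found in Fpr2, on the opposite strand 19 bases before the start, and in Ccr1, against 28.3% of 32851 promoters of the same length. The AP-1 site TGANTCA was found in C3ar1 only among the receptors, 22 bases before the start, and in 7.81% of all promoters. The interferon response core GAAANNGAA was found in C5ar1, on the opposite strand 66 bases before the start, and in Ccr2, against 8.56% of all. The NF-kB consensus was found in the first of 3 Ccrl2 windows and in 4.51% of all promoters. TATAAA was found in 4 receptors (Cxcr4, C3ar1, Fpr1 and Fpr2) and in 13.6% of all, and TTGCNNAA, the C/EBP site, in none of them and in 10.8% of all. Cx3cr1 held none of the 6. Receptors called in the same direction shared 1 motif at most, TATAAA in C3ar1 and Fpr2. The GC content was 54.3% for Cx3cr1, 53.7% for C5ar1, 46.0% for C3ar1 and 39.3% for Fpr2, against a median of 52.7% over all promoters. The RefSeq start of Cx3cr1 lies inside the gene as GENCODE draws it.

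As a list, ligand genes showed the widest log2 fold changes around these receptors. Of 20 ligand genes listed, 12 were tested, 2 rose, 8 fell and 2 were not called, where all genes gave 21% higher and 22.3% lower, with a median log2 fold change of -2.78 against -0.03 for all genes tested. The lists were drawn up with earlier results of these data known, and those already showed the fall of several chemokines. Ccl2, a CCR2 ligand, had 382128, 282280 and 327916 counts under control and 1694, 1674 and 1014 under the knockout label. Ccl3, a ligand of CCR1, held 1120033, 821761 and 1188738 against 9479, 10176 and 10204. Ccl4, a related chemokine, changed by -6.64 ± 0.23 on the log2 scale (SE; edgeR adjusted p = 2.45e-09), with 3799 to 6034 CPM in the control libraries and 41.2 to 48.7 CPM in the others. The groups did not overlap for any of these 3.

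The remaining CCR1 and CCR2 ligands were chosen after their values were seen. Ccl12 had 169, 124 and 69 counts under control and 0 in all those labelled knockout, at least 153-fold lower against 3 counts over the group. Ccl5, Ccl9 and Ccl6 had log2 fold changes of -4.45, -1.11 and -0.79 (edgeR adjusted p = 0.0119, 3.17e-05 and 0.000357). Control replicate 3 lay far above the other controls for Ccl5, at 217 CPM against 52.2 and 48.8. With 1 library left out the Ccl5 value ran from -4.81 to -3.38. Ccl9 stayed abundant, at 2060.0 ± 89.8 CPM in the controls and 956.7 ± 138.7 CPM in the others (SD, n = 3 each). Ccl7, which binds both receptors, was at 31, 77 and 79 counts under the knockout label and at 216125 or more in each control.

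Cx3cl1, the ligand of the receptor that rose most, was at 0 in all libraries. The ligands that rose were Anxa1 and Mif. Anxa1 encodes annexin A1, a ligand of the formyl peptide receptors that dampens inflammation, and its level went from 152.1 ± 2.12 up to 368.9 ± 39.7 CPM (mean ± SD of 3 libraries; edgeR adjusted p = 2.64e-06). Mif, a cytokine that can bind CXCR4, rose by 0.54 ± 0.11 on the log2 scale (adjusted p = 0.00233), and its value was 0.23 with the length correction, where it was not called (0.0876). Mitochondrial transcripts, whose products carry formyl groups, made up 7.01 to 8.69% of control counts and 9.95 to 12.3% of the others.

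Among 40 other leukocyte chemoattractant receptor genes, 20 had no count, 12 were tested, 4 rose and none fell by edgeR (median log2 fold change 0.53). Over all genes 21% were higher and 22.3% lower, and 1 of the 4, Cxcr3, passed the minimum on low counts through the knockout libraries, where it is high. With knockout replicate 2 left out the counts were 2 higher and 1 lower. At an unadjusted p under 0.05, 1 of the 12 lay lower, and DESeq2 called 0 as lower and 6 as higher. Gpr183, a receptor for oxysterols that positions immune cells in lymphoid tissue and osteoclast precursors on bone, went from 133, 141 and 163 counts under control to 1183, 1173 and 967 under the knockout label (log2 fold change 2.55 ± 0.20, SE; edgeR adjusted p = 1.44e-06). Cysltr1, a cysteinyl leukotriene receptor, rose by 1.94 ± 0.41 on the log2 scale (adjusted p = 0.00218). Cxcr3, the receptor for CXCL9, CXCL10 and CXCL11, held 12, 5 and 0 counts against 85, 119 and 35 (log2 fold change 3.49, adjusted p = 0.0105), and its call was lost without knockout replicate 2 (0.0688). P2ry6, a receptor for uridine diphosphate named after its value was seen, lay 0.46 higher on the log2 scale (adjusted p = 0.0311), and its call was lost with the length correction (0.160) and without control replicate 2 (0.109), control replicate 3 (0.0624), knockout replicate 1 (0.154), knockout replicate 2 (0.0583) or both libraries numbered 3 (0.0557).

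Among signalling genes downstream of the receptors more fell than rose. Of 15 G protein subunit genes tested 2 rose, 7 fell and 6 were not called (median -0.34), beside 21% higher and 22.3% lower over all genes, or 3 lower with library totals alone as scaling. Gnai2, the main Gi subunit of macrophages, fell from 63.8 ± 7.10 to 32.2 ± 4.96 CPM (SD, n = 3 each; edgeR adjusted p = 0.000105), and Gnb2, a beta subunit, from 36.8 ± 1.26 to 10.4 ± 1.29 CPM (5.36e-07). Gna13, which couples receptors to RhoA through RhoGEFs, had a log2 fold change of -0.66 ± 0.12. The gamma subunit Gng10 and the Gq subunit Gnaq lay higher by log2 values of 1.29 ± 0.11 and 1.06 ± 0.15 (SE), both called.

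Of 22 effectors of migration 4 rose, 12 fell and 6 were not called (median -0.62), beside the same 21% and 22.3% over all genes. Prkcd, a protein kinase C, and Lyn, a Src family kinase, had log2 fold changes of -1.40 and -1.36. Those that rose included Nup85, a nucleoporin that also binds CCR2, from 7.30 ± 1.46 to 27.5 ± 1.54 CPM (SD, n = 3 each; edgeR adjusted p = 1.99e-06). Fgr, another Src family kinase, rose by 1.54 ± 0.19 and Cdc42, the GTPase of cell polarity, by 0.86 ± 0.10 on the log2 scale.

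Of 20 genes that desensitise or traffic receptors 3 rose, 8 fell and 9 were not called (median -0.32), again beside 21% and 22.3% over all genes. Rgs16, a GTPase activator for Gi and Gq, had 173, 101 and 133 counts under control and 0 in all those labelled knockout, at least 173-fold lower against 3 counts over the group. Grk2, the main receptor kinase of leukocytes, fell from 32.7 ± 0.54 to 17.9 ± 2.19 CPM (SD, n = 3 each; edgeR adjusted p = 0.000121). Stam, an endosomal sorting protein, had a log2 fold change of -1.44 ± 0.20. The endosomal GTPase gene Rab7, the arrestin gene Arrb1 and Rgs19 rose by 0.91, 0.81 and 0.53 on the log2 scale, the last with 0.26 and no call after the length correction (adjusted p = 0.104).

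**Figure D4:**
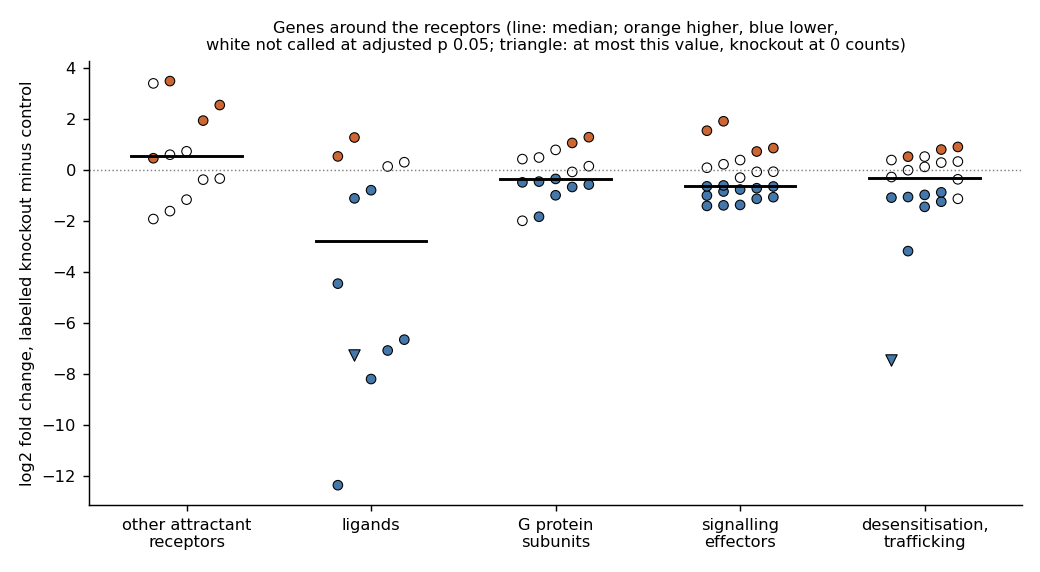
Log2 fold changes (labelled RhoA knockout minus control) of the tested genes in 5 lists around the receptors; each point is a gene, lines are list medians, and triangles mark genes with 0 counts under the knockout label, drawn at their bound. The ligands have the lowest median, -2.78, and Ccl7 is drawn lowest, at -12.3, while Rgs16 among the desensitisation genes is drawn at a bound only. The 4 called genes among the other attractant receptors all lie above 0.

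The gene most like each called receptor over the 6 libraries was sought by the root mean square difference of centred log2(CPM + 0.1), among 7213 or 7214 protein-coding genes of average log2 CPM of at least 1. It was Tnip3, an A20-binding inhibitor, for C5ar1 (difference 0.063), with 14.8, 17.6 and 12.6 CPM in the control libraries and 59.1, 55.8 and 65.0 CPM in the others. It was Bnip3, a mitophagy receptor, for Cx3cr1 (0.24), and control replicate 3 was the highest control library for both. For C3ar1 it was Smndc1, a splicing factor (0.15), whose own call was lost without both libraries numbered 3 (edgeR adjusted p = 0.0669), and for Fpr2 Herc6, an interferon-induced gene (0.22). The log2 fold change of Herc6 was -2.44 against -4.10 for Fpr2, whose libraries at 0 are lifted by the added 0.1 CPM. The matches are likenesses of pattern in 6 libraries that fall into 2 groups, given as a description.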

How the data were processed

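RNA-seq of 6 RAW264.7 samples, 3 controls and 3 labelled RhoA knockout, was analysed from the table of raw counts per gene deposited by the authors. The build was GRCm38, per the submitters' processing notes. What aligner, counter and strand setting made the counts is not given in the sources used here, so a gene and an antisense partner cannot be told apart. The table has 0 other per-sample columns, and rows without a symbol hold 0% of counts. Of 55487 identifiers 55227 had a symbol in GENCODE M21.

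Counts were filtered with edgeR 4.0.16 (filterByExpr: 10 counts in the median library, 0.132 CPM, in at least 3 libraries), scaled by TMM and tested with its quasi-likelihood test with Benjamini-Hochberg adjustment over all 12930 genes tested (R 4.3.3). The test was checked on data simulated from its own fitted model. Changes were set there only in genes of higher counts than Fpr2 and Ccr2, so the check does not cover such genes. Standard errors come from the F statistic. Exon lengths are from the annotation, and near copies were sought with blastn 2.17.0 (at least 200 bp aligned). Libraries held 60198645 to 81830819 counts, where 3 counts equal 0.0336 to 0.0513 CPM; intervals on counts cover counting error only.

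Members and lists were chosen with earlier results of these data known. Named genes were the receptors, Rhoa, per list the called genes of lowest p, up to 3 in each direction (in a list with no call, the 2 of highest level), the nearest profile of each called receptor, and tested neighbours on chromosome 9. Others are said to be chosen after their values were seen. Alternatives were library totals, RLE factors, DESeq2 1.42.0, 2 other filters, a replicate block, a length correction, removal of the 10 most abundant genes, and each library left out. Some genes that this rule names are not reported here.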

Additional observations from a re-analysis of the deposited data

How the results depend on the processing

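All 7 receptors tested kept their direction in every alternative that tested them, and Cx3cr1 (3.62 to 4.47), C5ar1 (1.69 to 2.09) and C3ar1 (-1.36 to -0.72) were called in 15 of 15. Receptors called lower numbered 1 under the stricter filter of 50 counts in 3 libraries, where neither Fpr2 nor Ccr2 was tested, and 1 without both libraries numbered 3. With 1 library left out they numbered 1 to 2. Over all genes, 2713 higher and 2879 lower became 3097 and 2083 with library totals, which put 59.8% of calls higher against 48.5% with TMM and moved the median log2 fold change to 0.15. Over all genes tested, deviations of same-numbered libraries were barely correlated (r of 0.0038, 0.027 and 0.034). This r takes in genes of few counts too, so it cannot exclude a pairing. Replicate 3 had the lowest mitochondrial share in both groups, 7.01% in the controls and 9.95% in the others, and a shared batch was not tested. With a replicate block 2634 genes were higher and 2738 lower, and 2 receptors were called in each direction. The log2 fold change of Xcr1 reversed to 3.01 with the replicate block. It ran from -1.17 to 6.96 with 1 library left out, the 6.96 being fitted to controls at 0. That of Ptprc reversed to 0.30 with the length correction, and with 1 library left out those of C3 and S100a8 ran from -0.13 to 0.68 and from -0.88 to 0.16, and that of S100a8 was -0.91 without both libraries numbered 3. The cause was not tested. Depth limits Cxcr4, Fpr1, Ccr2 and Fpr2.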

Other observations

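Some attractant receptors outside the 9 lay near the limits of the test, and they were chosen after their values were seen. S1pr1, the sphingosine 1-phosphate receptor that lets leukocytes leave tissue, had 12, 0 and 0 counts under control and 79, 43 and 26 under the RhoA knockout label, through which it passed the minimum on low counts. Its log2 fold change of 3.40 missed the threshold (edgeR adjusted p = 0.0508) and passed it with DESeq2 (0.0120). Ptafr, the receptor for platelet-activating factor, held 181, 148 and 196 counts against 350, 380 and 299 (0.60, edgeR adjusted p = 0.0613; DESeq2 0.0486). C5ar2, which binds C5a without coupling to G proteins, held 0, 0 and 3 counts against 8, 23 and 10 and was not tested.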
